A study of Mus musculus with 12 samples.

Results

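The vascular endothelial growth factor (VEGF) family was followed in the left ventricle (LV) of mouse offspring through 9 genes: the ligands Vegfa, Vegfb, Vegfc and Pgf, the receptors Flt1, Kdr and Flt4, and the co-receptors Nrp1 and Nrp2. The 9 genes were found by matching the Ensembl identifiers of the count tables, without their version, to mouse gene symbols, and all 9 were among the 46983 genes counted. All 9 also passed the filter on low counts that left 14706 genes for testing. The LVs came from 12-week-old offspring of Wt FVB dams and sires heterozygous for a Hif1a null allele in every cell (Hif1a+/-), on the same FVB background. The 4 groups were Wt and Hif1a+/- offspring of non-diabetic dams, and Wt and Hif1a+/- offspring of dams made diabetic with streptozotocin before mating, with 3 offspring in each, taken per the study's methods from several litters. All 12 offspring thus had a Hif1a+/- father, and no offspring received streptozotocin itself. Which offspring shared a litter is not given in the sources used here, so p values measure the spread between these animals.

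VEGF ligands are secreted proteins that bind receptor tyrosine kinases on endothelial cells and thereby control the growth, survival and permeability of vessels. VEGFA, a classical target of hypoxia-inducible factor 1 (HIF-1), signals mainly through VEGFR2, the product of Kdr, while VEGFB and PlGF, the product of Pgf, bind VEGFR1, the product of Flt1, which also exists as a soluble decoy that holds VEGFA back. VEGFC and VEGFD act through VEGFR3, the product of Flt4, on lymphatic vessels, and the neuropilins Nrp1 and Nrp2 hold VEGF ligands next to the receptors and also bind class 3 semaphorins. In the adult heart cardiomyocytes are a main source of VEGFA and VEGFB, and the receptors are carried mostly by endothelial cells.

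Because the study lowered the gene dose of a HIF-1 subunit, the DNA before the start sites of the family was searched for the core of the HIF-1 recognition site. The core was searched as ACGTG or GCGTG on both strands in the 250 bases before each RefSeq start site (GRCm38.p6). ACGTG also lies inside the E-box CACGTG, which other factors bind. The table held 11 windows for the 9 genes, and 7 of these windows held at least 1 match, against 38.6% of all 32851 windows of the same length. The 4 windows printed here belong to the ligand with the widest spread between samples (Vegfa), the ligand with the narrowest (Vegfb) and the receptor pair that varied together (Flt1 and Kdr). Capitals mark the core or its reverse complement, and each sequence runs 5′ to 3′ towards the start site.
Vegfa, chr17:46032378-46032627, minus strand: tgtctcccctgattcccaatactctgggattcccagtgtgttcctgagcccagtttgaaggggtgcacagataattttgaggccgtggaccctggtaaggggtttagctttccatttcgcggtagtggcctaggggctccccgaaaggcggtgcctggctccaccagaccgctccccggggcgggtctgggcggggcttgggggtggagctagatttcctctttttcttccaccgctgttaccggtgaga
Vegfb, chr19:6987652-6987901, minus strand: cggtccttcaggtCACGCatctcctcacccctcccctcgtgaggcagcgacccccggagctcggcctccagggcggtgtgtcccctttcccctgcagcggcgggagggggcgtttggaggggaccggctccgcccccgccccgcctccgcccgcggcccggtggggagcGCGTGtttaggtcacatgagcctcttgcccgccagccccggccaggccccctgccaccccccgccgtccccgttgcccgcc
Flt1, chr5:147726012-147726261, minus strand: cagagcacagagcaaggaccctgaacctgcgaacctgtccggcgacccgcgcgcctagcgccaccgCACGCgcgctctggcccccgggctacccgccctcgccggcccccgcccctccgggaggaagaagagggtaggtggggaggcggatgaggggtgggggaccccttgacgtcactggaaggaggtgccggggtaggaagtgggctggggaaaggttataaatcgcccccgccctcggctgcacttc
Kdr, chr5:75978456-75978705, minus strand: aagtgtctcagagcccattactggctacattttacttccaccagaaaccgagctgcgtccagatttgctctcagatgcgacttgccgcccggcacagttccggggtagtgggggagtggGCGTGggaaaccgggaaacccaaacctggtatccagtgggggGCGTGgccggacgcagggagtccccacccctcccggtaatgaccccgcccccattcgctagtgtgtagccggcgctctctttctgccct
The printed Vegfa window, which lies upstream of the annotated gene, held 0 matches, the Vegfb and Kdr windows held 2 matches each and the Flt1 window held 1 match. The 2 Kdr matches lay 131 and 89 bases before the start on the strand of the gene, the Flt1 match 184 bases before it on the other strand. Vegfa had another window in the table, at chr17:46025164-46025413 inside the gene, of which 218 of the 250 bases lie in annotated exons and which is not printed. That window held GCGTG 218 bases and ACGTG 211 bases before its start site, and the latter was the only ACGTG among the 11 windows. A match is a description of the letters only, and the absence of a match in a window of 250 bases does not speak about sites farther away. The share of G and C was 59.2% in the Vegfa window, 61.6% in that of Kdr, 70.4% in that of Flt1 and 76.4% in that of Vegfb, against a median of 52.4% over all windows.

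Between 16132442 and 39812939 reads per sample were counted on genes in 3′-seq libraries, which sample transcripts at their 3′ ends. Values are CPM, that is, reads on a gene scaled to a fixed total of reads counted on genes, with library sizes made comparable by TMM. The labels call all offspring female, whereas the study reports that its analyses after echocardiography used males only. Diabetic Hif1a+/- replicate 72 had 158.4 CPM of Xist and 0.4 CPM of the Y-linked Ddx3y, whereas the other 11 samples had between 0.2 and 6.0 CPM of Xist and between 76.1 and 110.4 CPM of Ddx3y. By these reads replicate 72 was female and the other 11 samples were male, so replicate 72 stood apart. Some values of Vegfa and Pgf and a count of genes past the threshold are also given without it. Group values of the ratios, marker scores and gene lists are given only with it. The 10 cardiomyocyte markers, led by Myh6 with a mean of 30100 CPM, were abundant in all samples. The atrial markers had means of 45.7 CPM for Nppa, 4.3 for Myl4, 1.6 for Myl7 and 0.755 CPM for Sln.

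Hif1a itself, which encodes the oxygen-regulated subunit of HIF-1 and whose null allele defines the genotype, was not lower in Hif1a+/- hearts. It was 55.7, 57.0 and 71.8 CPM in non-diabetic Wt, 47.9, 59.3 and 58.6 CPM in diabetic Wt, 89.4, 78.8 and 88.9 CPM in non-diabetic Hif1a+/- and 70.5, 64.8 and 81.5 CPM in diabetic Hif1a+/-. The Hif1a+/- samples were thus the higher ones within each pregnancy, without overlap. Averaged over both pregnancies the log2 fold change was 0.43 (standard error 0.09), with an edgeR p of 0.00024, an edgeR adjusted p of 0.60 and a DESeq2 adjusted p of 0.031. Reads from the 3′ end do not show whether the transcript of the null allele is functional, and they cannot check the genotype, which rests on the labels. Hif1a also overlaps the exon of the antisense gene Gm15283, and how the counting treated strand is not given in the sources used here.

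No member of the family passed the adjusted p threshold of 0.1 in any of the 7 comparisons, which were diabetic against non-diabetic pregnancy and Hif1a+/- against Wt, each averaged and within both levels of the other factor, and their interaction. In all 7 comparisons 0 of the 14706 tested genes passed (0.0%), so that the family was no exception. The number of tested genes with an unadjusted p under 0.05 was 1660 for diabetes averaged over genotypes, 396 for genotype averaged over pregnancies, 409 for diabetes in Wt, 1764 for diabetes in Hif1a+/-, 141 for genotype in non-diabetic, 787 for genotype in diabetic pregnancy and 371 for the interaction. DESeq2 called 203, 7, 4, 201, 1, 24 and 0 genes in these comparisons at the same threshold (1.46%, 0.0259%, 0.0148%, 1.44%, 0.00369%, 0.155% and 0.0% of the genes it tested), and none of the 9 members was among them. The median log2 fold change of the 9 members was 0.03 for averaged diabetes (4 below and 5 above 0) and -0.02 for averaged genotype (5 below and 4 above 0), where the median of all tested genes was 0.00 in either case.

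**Figure D1:**
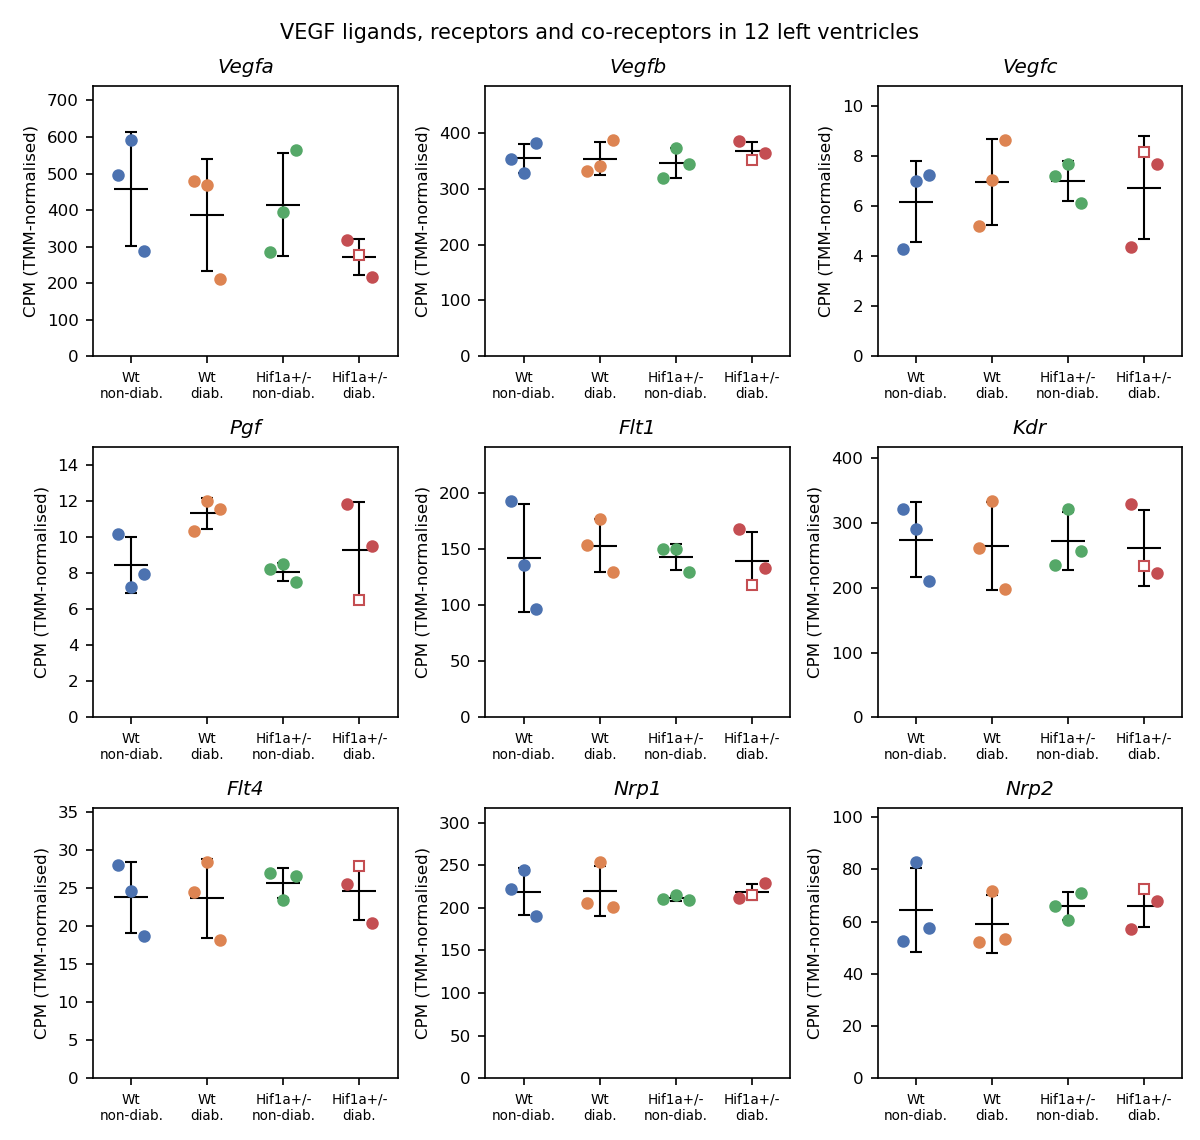
Levels of the 9 genes, in CPM after TMM normalization, in the LV of 12 offspring by group. Each point is 1 offspring, horizontal bars are group means with SD (n = 3), and the open square is diabetic Hif1a+/- replicate 72. Vegfa ranged from 211.1 to 591.5 CPM, with points far apart inside every group but diabetic Hif1a+/-, which spanned 218.3 to 316.9 CPM. Vegfb stayed between 319.1 and 387.0 CPM.

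The 2 most abundant members were ligands. Levels of different genes are given per kilobase of merged exon length and as CPM without length, since 3′-seq reads may not scale with length. Per kilobase, Vegfb came first with 221 CPM per kb and Vegfa next with 89.3 CPM per kb. The level per length was then 29.7 CPM per kb for Kdr, 22.2 for Nrp1, 10.7 for Flt1, 5.39 for Nrp2, 3.20 for Pgf, 2.97 for Flt4 and 2.74 CPM per kb for Vegfc. Neighbours in this order kept it in 12 of 12 samples, except that Pgf was above Flt4 in only 8 and Flt4 above Vegfc in only 8. On this scale these 3 genes could thus not be put in order. In CPM without length, Flt4 was above Pgf in 12 of 12 samples, and Pgf above Vegfc in 11 of 12. Reads of 3′-seq gather at transcript ends, and on the CPM scale without length Vegfa, at 383 ± 134 CPM (SD, n = 12), and Vegfb, at 355 ± 23.2 CPM (SD, n = 12), could not be put in order, each being above the other in 6 of the 12 samples. The other members, in CPM over the same 12 samples, were Kdr at 268 ± 49.7, Nrp1 at 217 ± 17.9, Flt1 at 145 ± 26.4, Nrp2 at 63.8 ± 9.74, Flt4 at 24.4 ± 3.61, Pgf at 9.30 ± 1.90 and Vegfc at 6.72 ± 1.42 CPM. Vegfd, the remaining ligand of the family, was the lowest on either scale, with 2.40 ± 0.372 CPM (SD, n = 12) and 0.998 CPM per kb.

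Vegfa (ENSMUSG00000023951, chromosome 17 from 46016993 to 46032369 of GRCm38, minus strand) had the lowest mean in diabetic Hif1a+/- hearts, but the groups overlapped. It was 496.5, 591.5 and 286.9 CPM in non-diabetic Wt, 480.4, 469.4 and 211.1 CPM in diabetic Wt, 284.1, 395.7 and 564.6 CPM in non-diabetic Hif1a+/- and 316.9, 277.1 and 218.3 CPM in diabetic Hif1a+/-. All 3 diabetic Hif1a+/- samples were low, as were 1 sample of each other group, and the lowest of the 12 was diabetic Wt replicate 80. The group means were 458 ± 156, 387 ± 152, 415 ± 141 and 271 ± 49.6 CPM (SD, n = 3 each) in this order. Averaged over genotypes, Vegfa was 0.743-fold in diabetic against non-diabetic pregnancy, a log2 fold change of -0.43 with a 95% interval from -0.92 to 0.06 (edgeR adjusted p = 0.50). The log2 fold change was -0.24 (standard error 0.32) in Wt and -0.61 (standard error 0.32) in Hif1a+/-, with an interaction of -0.37 (standard error 0.46, edgeR adjusted p = 1). Single samples moved these values. The value in Hif1a+/- was -0.62 without replicate 72 but -0.32 without non-diabetic Hif1a+/- replicate 44, and it ranged from -0.83 to -0.32 when each sample was left out in turn. Leaving out diabetic Wt replicate 80 turned the value in Wt to 0.05, so its direction rested on that sample. Without either of these replicates, 44 or 80, the averaged value was -0.28, and the interaction ranged from -0.67 (without replicate 80) to -0.08 (without replicate 44). Hif1a+/- against Wt gave -0.14 in non-diabetic and -0.52 in diabetic pregnancy, and -0.33 when averaged, with a 95% interval from -0.82 to 0.16 (edgeR adjusted p = 1). When each sample was left out in turn, these values ranged from -0.44 (without non-diabetic Hif1a+/- replicate 44) to 0.08 (without non-diabetic Wt replicate 42), from -0.81 (without diabetic Wt replicate 80) to -0.33 (without diabetic Wt replicate 50), and from -0.48 to -0.22.

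The Vegfa call depended on the filter on low counts. When edgeR was run on all 27093 genes with at least 1 count, Vegfa passed for averaged diabetes (edgeR adjusted p = 0.0056), for diabetes in Hif1a+/- (edgeR adjusted p = 0.0051) and for genotype in diabetic pregnancy (edgeR adjusted p = 0.069), while its log2 fold changes stayed at -0.42, -0.60 and -0.50. That fit called 593, 592 and 220 genes in these 3 comparisons, or 2.19%, 2.19% and 0.812% of those tested. It called no member in the other comparisons, where 0.284% (averaged genotype), 0.476% (diabetes in Wt), 0.122% (genotype in non-diabetic pregnancy) and 0.288% (interaction) of the genes passed. With DESeq2 the adjusted p of Vegfa was 0.57, 0.53 and 0.99 in the same order.

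Pgf (ENSMUSG00000004791, chromosome 12 from 85166635 to 85177790, minus strand), which encodes the VEGFR1 ligand PlGF, was the only member whose groups separated in any comparison of 2 groups. It was 10.2, 7.2 and 8.0 CPM in non-diabetic Wt and 10.4, 12.0 and 11.6 CPM in diabetic Wt, so that the lowest diabetic Wt value, 10.4 CPM, exceeded the highest non-diabetic one, 10.2 CPM. Among all tested genes 5.54% separated these 2 groups in either direction. In Hif1a+/- it was 8.2, 8.5 and 7.5 CPM after non-diabetic and 11.8, 6.5 and 9.5 CPM after diabetic pregnancy, with overlap, and the lowest value, 6.5 CPM, was that of replicate 72. The log2 fold change was 0.43 (standard error 0.19) in Wt and 0.21 (standard error 0.19) in Hif1a+/-. Averaged, it was 0.32 with a 95% interval from 0.03 to 0.61, which had an edgeR p of 0.035 but an edgeR adjusted p of 0.43 and a DESeq2 adjusted p of 0.37. Leaving out replicate 72 raised the value in Hif1a+/- from 0.21 to 0.42 and the averaged value to 0.42 (edgeR adjusted p = 0.26). Leaving out diabetic Hif1a+/- replicate 66 instead turned the value in Hif1a+/- to -0.01 and lowered the averaged value to 0.21, so the direction in Hif1a+/- rested on that sample. In counts, Pgf had between 148 and 461 reads per sample.

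None of the 9 members separated the 2 groups in the other comparisons of 2 groups. Of the tested genes, 24.4% did so between diabetic and non-diabetic Hif1a+/-, 4.81% between Hif1a+/- and Wt in non-diabetic and 7.94% in diabetic pregnancy. None of the 9 separated the 6 diabetic from the 6 non-diabetic samples, as 0.585% of the tested genes did, or the 6 Hif1a+/- from the 6 Wt samples, as 0.102% did.

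Vegfb (ENSMUSG00000024962, chromosome 19 from 6982473 to 6987651, minus strand), a VEGFR1 ligand best known in heart muscle for its part in fatty acid uptake, was the steadiest member. It was 353.1, 327.8 and 381.2 CPM in non-diabetic Wt, 332.1, 341.3 and 387.0 CPM in diabetic Wt, 319.1, 372.7 and 343.8 CPM in non-diabetic Hif1a+/- and 385.2, 350.7 and 364.0 CPM in diabetic Hif1a+/-. The highest sample was 1.21 times the lowest, and every group overlapped every other. The averaged log2 fold change was 0.04 for diabetes, with a 95% interval from -0.10 to 0.18, and 0.01 for genotype, with an interval from -0.13 to 0.15, so that on the linear scale changes outside 0.934-fold to 1.13-fold with diabetes lay beyond the interval. Vegfc (ENSMUSG00000031520, chromosome 8 from 54077606 to 54187096, plus strand), the lymphatic ligand, lay between 4.3 and 8.6 CPM over the 12 samples, and its averaged log2 fold changes were 0.04 for diabetes (95% interval from -0.35 to 0.44) and 0.05 for genotype (95% interval from -0.34 to 0.45). Vegfc had between 69 and 207 reads per sample, and the standard error of its averaged diabetes value was 0.18, below the 0.23 of Vegfa. Vegfd was between 1.63 and 3.09 CPM, with averaged log2 fold changes of 0.11 for diabetes and -0.12 for genotype (edgeR adjusted p = 0.80 and 1).

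**Figure D2:**
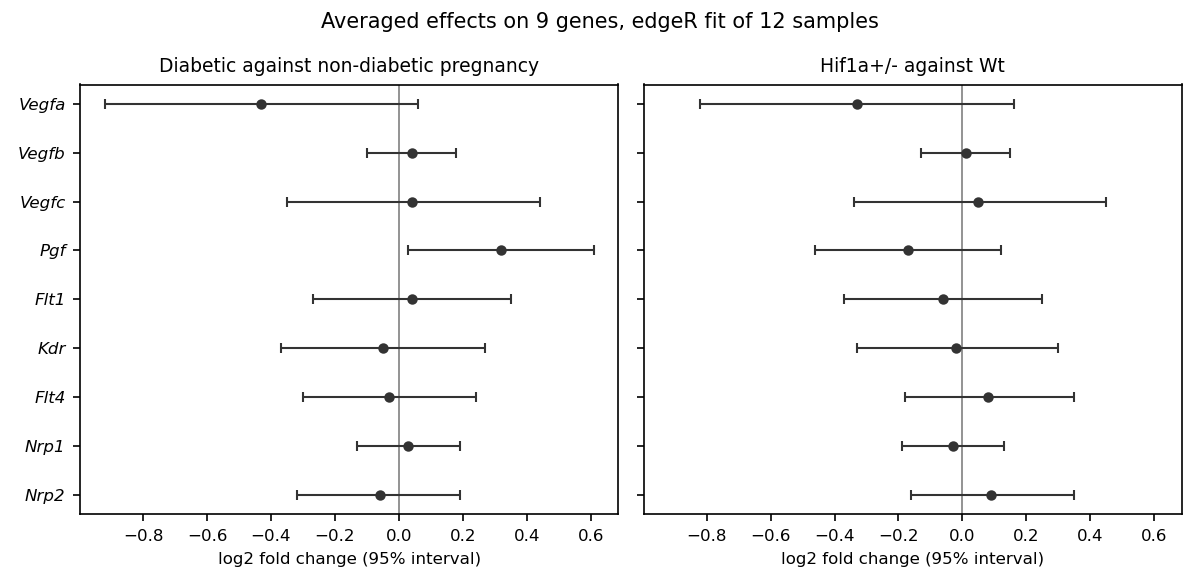
Log2 fold changes of the 9 genes for diabetic against non-diabetic pregnancy (left) and Hif1a+/- against Wt (right), each averaged over the other factor in the edgeR fit of 12 samples. Points are estimates and bars 95% intervals before adjustment for the number of genes, and only the interval of Pgf on the left, from 0.03 to 0.61, leaves out 0.

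The receptors differed little between the groups. Kdr (ENSMUSG00000062960, chromosome 5 from 75932827 to 75978458, minus strand), whose product VEGFR2 carries most of the endothelial response to VEGFA, was 322.0, 291.1 and 210.2 CPM in non-diabetic Wt, 261.9, 333.9 and 198.4 CPM in diabetic Wt, 235.8, 322.0 and 257.1 CPM in non-diabetic Hif1a+/- and 329.6, 233.9 and 222.1 CPM in diabetic Hif1a+/-. High and low samples occurred in each group, and the group means lay between 262 and 274 CPM. The log2 fold change was -0.05 for averaged diabetes (95% interval from -0.37 to 0.27) and -0.02 for averaged genotype (edgeR adjusted p = 0.91 and 1).

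Flt1 (ENSMUSG00000029648, chromosome 5 from 147561604 to 147726011, minus strand), whose gene yields both the membrane receptor VEGFR1 and the soluble decoy, was 192.8, 135.9 and 97.0 CPM in non-diabetic Wt, 153.3, 176.8 and 129.2 CPM in diabetic Wt, 149.8, 150.2 and 129.8 CPM in non-diabetic Hif1a+/- and 168.1, 118.1 and 133.0 CPM in diabetic Hif1a+/-. Both the highest and the lowest of the 12 values were in non-diabetic Wt. The averaged log2 fold change was 0.04 for diabetes (95% interval from -0.27 to 0.35) and -0.06 for genotype (95% interval from -0.37 to 0.25). The count tables give 1 value per gene, so the membrane and soluble forms were not told apart. Flt4 (ENSMUSG00000020357, chromosome 11 from 49609263 to 49652739, plus strand), the receptor of lymphatic endothelium, lay between 18.1 and 28.4 CPM, both of them in diabetic Wt, and its averaged log2 fold changes were -0.03 for diabetes (95% interval from -0.30 to 0.24) and 0.08 for genotype (95% interval from -0.18 to 0.35).

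The co-receptors were similarly even. Nrp1 (ENSMUSG00000025810, chromosome 8 from 128358604 to 128503363, plus strand), which binds VEGFA and joins it to VEGFR2, was 222.4, 244.5 and 190.1 CPM in non-diabetic Wt, 205.6, 253.7 and 201.1 CPM in diabetic Wt, 210.4, 214.7 and 208.9 CPM in non-diabetic Hif1a+/- and 211.1, 215.0 and 228.6 CPM in diabetic Hif1a+/-. The extremes were again in the 2 Wt groups. Its averaged log2 fold changes were 0.03 for diabetes (95% interval from -0.13 to 0.19) and -0.03 for genotype (95% interval from -0.19 to 0.13). The miRNA gene Mir1903 overlaps an exon of Nrp1, and reads shared by both would not be counted on either under the union mode that the authors used. Nrp2 (ENSMUSG00000025969, chromosome 1 from 62703285 to 62818695, plus strand), which favours VEGFC and lymphatic vessels, lay between 52.2 and 82.8 CPM, with averaged log2 fold changes of -0.06 for diabetes (95% interval from -0.32 to 0.19) and 0.09 for genotype (95% interval from -0.16 to 0.35).

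Ratios between members, in which a factor common to both cancels, gave no adjusted p under 0.1 either. The ratio of Flt1 to Kdr, that is, of the decoy-forming receptor to the signalling receptor, was 0.463 to 0.652 over the 12 samples, and its log2 differed by 0.11 between diabetic and non-diabetic pregnancy (exact permutation test within genotypes, two-sided, p = 0.30, adjusted p = 0.67 over 12 tests on 6 ratios). The log2 ratio of Vegfb to Vegfa was 0.45 ± 0.25 in diabetic and -0.21 ± 0.45 in non-diabetic Hif1a+/-, against -0.04 ± 0.79 in diabetic and -0.31 ± 0.65 in non-diabetic Wt (SD, n = 3 each). Vegfb exceeded Vegfa in all 3 diabetic Hif1a+/- samples and in 1 sample of each other group. The log2 ratio of Vegfa to Kdr, ligand to receptor, was lower by 0.36 after diabetic pregnancy and had the smallest p of the 12 (exact permutation test, p = 0.09, adjusted p = 0.67, smallest possible 0.005). The ratios of Nrp1 to Kdr, of Flt4 to Kdr and of Vegfc to Vegfa had exact permutation p values between 0.29 and 0.88.

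Members differed in their spread inside the groups. The SD of log2 CPM within groups of 3 was 0.52 for Vegfa, and of the 8812 tested genes with a mean of at least 10 CPM only 92 (1.04%) had a larger one. The same SD was 0.31 for Flt1 and for Kdr, 0.25 for Flt4, 0.24 for Nrp2, 0.13 for Nrp1 and 0.10 for Vegfb, against a median of 0.14 over the 8812 genes, and 73.4% of the genes varied more than Vegfb. The 2 most abundant ligands, both made in heart muscle, thus had the widest and the narrowest spread of the 7 members above 10 CPM.

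**Figure D3:**
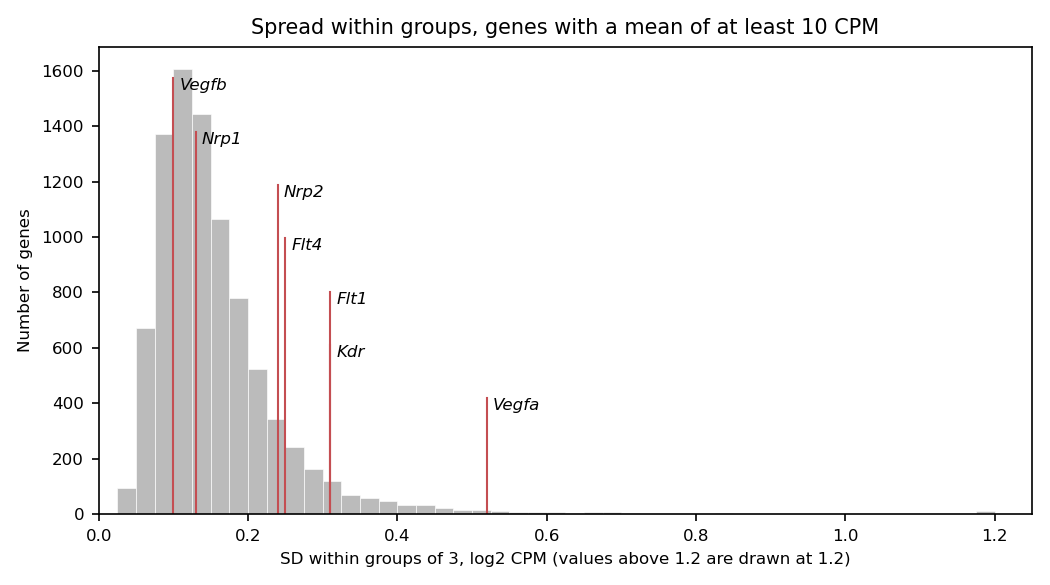
Distribution over 8812 genes of the SD of log2 CPM within groups of 3, with the members that have a mean of at least 10 CPM marked by red lines whose height carries no meaning. Vegfa lies in the far tail at 0.52, Kdr and Flt1 share 0.31, and Vegfb at 0.10 and Nrp1 at 0.13 lie in the bulk of the genes.

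Across the 12 samples Vegfa followed the main axis on which all genes varied. The first principal component of the tested genes held 24.5% of the variance, and the 6 samples with its lowest scores were the 6 with the highest Vegfa. Pearson's r between Vegfa and this component was -0.96 (permutation p = 1e-05, the smallest that 100000 resamples can give) and Spearman's rho was -0.94 (permutation p = 3e-05). It was -0.92 without diabetic Wt replicate 80 and diabetic Hif1a+/- replicate 77, the samples farthest from the median score, and -0.95 once group means had been removed, so it held within groups. The component was computed with Vegfa among its 14706 genes. In a family of 10 relations of Vegfa to sample measures, chosen after the data had been seen, the adjusted permutation p of r was 0.0001 for this component and 0.029 for the macrophage marker score, with r = -0.73 and rho = -0.78 (permutation p = 0.0057 and 0.0042). For the macrophage score r was -0.81 without the 2 samples farthest from its median and -0.65 within groups. The mural cell score had r = 0.69 and rho = 0.63 (permutation p = 0.012 and 0.033, adjusted p = 0.041 and 0.11), and r = 0.75 without the 2 samples farthest from its median. With the total count Vegfa had r = -0.12 and rho = -0.15 (permutation p = 0.72 and 0.65, adjusted p = 0.73 and 0.72), and r = 0.12 without the 2 samples farthest from its median. With the mean of 24 other HIF-1 targets it had r = 0.25 and rho = 0.18 (permutation p = 0.44 and 0.57, adjusted p = 0.68 and 0.72), and r = -0.13 without 2 samples. With the fibroblast score Vegfa had r = -0.62 and rho = -0.57 (permutation p = 0.03 and 0.058, adjusted p = 0.075 and 0.15), and r was -0.54 without diabetic Hif1a+/- replicates 72 and 77 and -0.51 within groups. Hif1a, the second component, the share of reads with several places and the number of genes with a count had adjusted permutation p values of r between 0.68 and 0.73.

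Flt1 and Kdr varied together, and Nrp1 varied most closely with endothelial markers, followed by Kdr and Flt4. Of the 36 pairs of members, Flt1 and Kdr had the highest r, 0.78 (permutation p = 0.0021, adjusted p = 0.077), with rho = 0.85 (permutation p = 0.00081, adjusted p = 0.029), and r was 0.74 without the 2 samples farthest from the median of Flt1 and 0.82 within groups. The endothelial score, the mean log2 of CPM plus 0.5 over 15 marker genes such as Pecam1 and Cdh5 that are not members, followed Nrp1 with r = 0.81 (permutation p = 0.0018, adjusted p = 0.032) and rho = 0.83 (permutation p = 0.0013, adjusted p = 0.023), and r was 0.70 without diabetic Wt replicates 7 and 80, the samples farthest from the median score. With Kdr the score had r = 0.69 (permutation p = 0.0054, adjusted p = 0.048) and rho = 0.62 (permutation p = 0.037, adjusted p = 0.18), and r was 0.50 without the same 2 samples, so that this relation rested in part on them. Flt4 had r = 0.69 (permutation p = 0.010, adjusted p = 0.061) and Flt1 r = 0.57 (permutation p = 0.053, adjusted p = 0.17), with rho = 0.70 and 0.56 (permutation p = 0.015 and 0.063, adjusted p = 0.13 and 0.19), and r = 0.53 and 0.59 without these samples. The other 5 members had adjusted permutation p values of r of 0.17 or more with this score. So had all 9 with the cardiomyocyte score, in a family of 18 relations. In bulk LV, fewer cells of a type and less RNA per cell cannot be told apart.

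**Figure D4:**
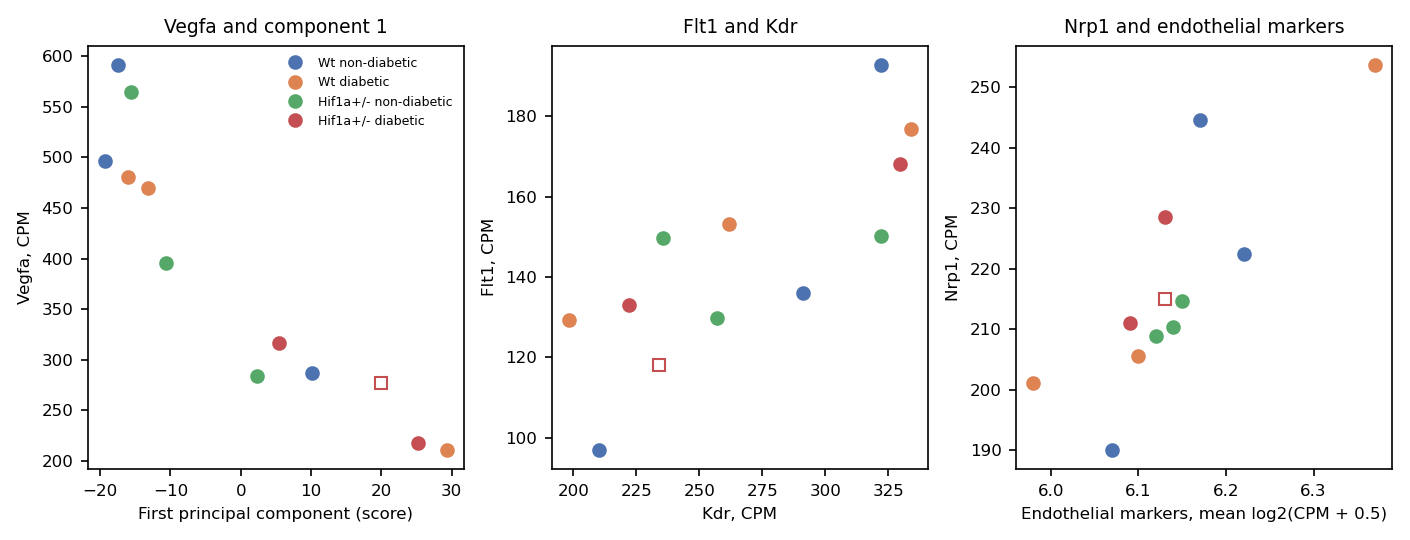
Vegfa against the score on the first principal component (left), Flt1 against Kdr (middle) and Nrp1 against the endothelial marker score (right), with 1 point per offspring, colours for the 4 groups and an open square for diabetic Hif1a+/- replicate 72. Levels are in CPM on axes that do not start at 0. Vegfa falls along the component (r = -0.96), Flt1 rises with Kdr (r = 0.78) and Nrp1 rises with the endothelial markers (r = 0.81). The diabetic Hif1a+/- samples scored 5.4, 19.9 and 25.2 on the component, whereas every other group had scores on both sides of 0.

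Marker lists of 11 tissues or cell types, each with a score for averaged diabetes and for averaged genotype, gave no adjusted permutation p under 0.1 in 22 exact tests. The endothelial score was even, at 6.15, 6.15, 6.14 and 6.12 in non-diabetic Wt, diabetic Wt, non-diabetic Hif1a+/- and diabetic Hif1a+/- (difference with diabetes -0.01, exact permutation p = 0.84). The macrophage score was 4.70 ± 0.28, 4.92 ± 0.36, 4.52 ± 0.35 and 5.38 ± 0.34 (SD, n = 3 each) in the same order, a difference of 0.54 with diabetes (exact permutation p = 0.025, adjusted p = 0.28). The summed level of its 6 genes was 131 to 246 CPM in the non-diabetic groups and 187 to 432 CPM in the diabetic ones, and none of the 6 was at 0. The lymphatic score, over 6 genes led by Prox1, which heart muscle also expresses, was 3.27 ± 0.19, 3.44 ± 0.03, 3.34 ± 0.11 and 3.6 ± 0.06 (SD, n = 3 each), a difference of 0.21 (exact permutation p = 0.015, adjusted p = 0.28), beside which Vegfc and Flt4 gave averaged diabetes values of 0.04 and -0.03. The other 8 lists had exact permutation p values for diabetes between 0.29 and 0.79. The part of macrophages in the Vegfa values was not tested.

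Genes that act with the family were read from 6 lists, and 0 of their tested genes passed in any of the 7 comparisons. Among the 43 tested genes of VEGF receptor signalling, 20 were below and 23 above 0 for averaged diabetes (median log2 fold change 0.01, against 0.00 for all genes). At an unadjusted edgeR p under 0.05, 2 were up and 3 down. Of all tested genes 50.8% were below 0 in this comparison, and 11.3% had an unadjusted edgeR p under 0.05. The smallest p values were those of Ptprj, a phosphatase that acts on VEGFR2 (log2 fold change 0.40, edgeR adjusted p = 0.32), of Akt1, a survival kinase (0.18, adjusted p = 0.34), and of Nos3, the endothelial nitric oxide synthase (-0.21, adjusted p = 0.39). Ptprj was 7.71 ± 0.386, 8.0 ± 1.82, 6.44 ± 1.46 and 10.8 ± 0.285 CPM in non-diabetic Wt, diabetic Wt, non-diabetic Hif1a+/- and diabetic Hif1a+/- (SD, n = 3 each), and it also led the interaction in this list, with 0.69 (edgeR adjusted p = 1), followed by Prkcd (0.34).

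The angiopoietin and Notch list, 15 genes that steady vessels or select tip cells, had 13 genes below and 2 above 0 for averaged diabetes. The median log2 fold change of the list was -0.07 against 0.00 for all tested genes, of which 50.8% were below 0. Its smallest p values belonged to Hey2, a Notch target (0.43, edgeR adjusted p = 0.33), Angpt1, the TIE2 agonist (-0.38, adjusted p = 0.44), and Dll1, a Notch ligand (-0.29, adjusted p = 0.45). Angpt1 was 40.4 ± 15.1, 29.4 ± 10.3, 33.0 ± 1.64 and 26.7 ± 2.41 CPM in the order above (SD, n = 3 each), and so it was spread widely in Wt, as Vegfa was. In the interaction the leading genes were Dll4 (-0.30), Tek (-0.14) and Jag1 (-0.23), all with an edgeR adjusted p of 1.

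Of 14 genes that endothelial cells regulate in response to VEGF, 9 were below and 5 above 0 for averaged diabetes (median -0.06). Besides Pgf, which is on this list, the smallest p values were those of the tip cell gene Esm1 (log2 fold change 0.53, edgeR adjusted p = 0.44) and of Apln, which encodes the peptide apelin (-0.38, adjusted p = 0.46), which thus pointed in opposite directions. For the interaction they were Hlx (-0.58), Dll4 (-0.30) and Cxcr4 (0.46). Among 11 tested semaphorins and plexins, the other partners of the neuropilins, 6 were below and 5 above 0 for averaged diabetes (median -0.01), led by Sema3a (-0.36, edgeR adjusted p = 0.33), Plxna1 (-0.11) and Sema3d (0.19), and Sema3g led the interaction (-0.48, adjusted p = 1).

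Of 26 tested HIF-1 targets, Vegfa and Flt1 among them, 23 were below and 3 above 0 for averaged genotype. Their median log2 fold change was -0.13 against 0.00 for all tested genes, of which 52.0% were below 0. At an unadjusted edgeR p under 0.05, which 2.69% of all tested genes had, 3 of the 26 targets were lower and 0 higher in Hif1a+/-. None of the targets passed the adjusted threshold. For averaged diabetes 9 were below and 17 above 0 (median 0.06), with the smallest p values for the histone demethylase gene Kdm3a (-0.29, edgeR adjusted p = 0.31), for Adm, which encodes the vasoactive peptide adrenomedullin (-0.41, adjusted p = 0.43), and for Pdk1, which restrains pyruvate oxidation (-0.14, adjusted p = 0.45). Kdm3a was 38.8 ± 5.68, 35.3 ± 6.32, 36.6 ± 1.61 and 26.7 ± 0.721 CPM in the order above (SD, n = 3 each). Eno1 led the interaction (0.30, edgeR adjusted p = 1). Among 6 genes, those of the HIF subunits and their regulator Vhl, Hif1a had the smallest p for averaged diabetes (-0.20, edgeR adjusted p = 0.43), followed by Hif3a (0.43) and Arnt2 (-0.12), and Arnt (-0.16), Epas1 (-0.21) and Hif3a (-0.54) led the interaction.

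The genes whose levels over the 12 samples were most like those of Vegfa, among 8812 genes with a mean of at least 10 CPM, were Zfp568 (Pearson's r = 0.98), Xpo1 (0.96), Fip1l1 (0.95), Lats2 (0.95) and Strn (0.95), where the median over all these genes was 0.08. Zfp568 ranged from 29.1 to 83.1 CPM, about as widely as Vegfa, whereas Fip1l1 ranged only from 34.8 to 43.5 CPM. Those most like Kdr were Zfp335 (r = 0.96), Tmco3 (0.94), Trip11 (0.93), Dag1 (0.92) and Neurl4 (0.91), with a median of 0.07 over all genes, and no other member was among them. These are the highest of 8812 values from 12 samples that share the main axis of variation, and they are given as a description.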

How the data were processed

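LV RNA of 12 offspring was measured by 3′-seq. Per the study's methods the authors trimmed the reads with Trimmomatic, discarded those of ribosomal and mitochondrial origin, used STAR (version 2.5.2b) for alignment to GRCm38 under GENCODE M8, and counted genes by htseq-count in union mode. The deposited counts are whole numbers per gene without normalization. Between 20.2% and 24.18% of the reads in a file stood in tally lines that name no gene and were left out. The authors' normalized values were not used.

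Symbols, positions and exon lengths came from GENCODE M21 by Ensembl identifier without version, and 46488 of 46983 identifiers had a symbol. Counts were fitted with edgeR (version 4.0.16, R version 4.3.3) by the quasi-likelihood test, with TMM scaling and group means for all 12 samples together (8 residual degrees of freedom), after edgeR's own group-wise filter on low counts. P values were adjusted by Benjamini-Hochberg over all 14706 tested genes, with a threshold of 0.1. The biological coefficient of variation was 13.7%. Standard errors are the log2 fold change divided by the root of its F, and intervals use the degrees of freedom of the fit. The precision rests on the spread between animals, since all members had at least 69 reads in every sample. Chi-square per gene was 5.54 to 47.25 over 13071 genes for the 12 pairs of samples within groups, so the replicates of a group were counted as separate samples.

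Ratios and marker scores used log2 of CPM plus 0.5 and two-sided exact permutation tests with labels exchanged within the other factor (400 arrangements). Correlations used 100000 permutations. Alternatives were DESeq2 (version 1.42.0), DESeq2 size factors in edgeR, no filter, at least 10 counts in every sample, limma (version 3.58.1) voom weighted by sample quality, fits restricted to the 2 groups in question, a threshold of 0.05, a pseudocount of 5 CPM and leaving out each sample. The fits were tested on simulated data with known changes for averaged diabetes. Of 50 genes changed 1.5-fold, edgeR recovered 35, DESeq2 38 and limma-voom 33, and of 50 changed 3-fold each recovered 49. Unchanged genes called numbered 18 with edgeR, 52 with DESeq2 and 16 with limma-voom.

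The members and gene lists were chosen with earlier results of these data known. Named genes were all members, Vegfd and Hif1a, up to 3 genes with the smallest p per list for averaged diabetes and for the interaction, and the 5 genes most correlated with Vegfa and with Kdr. Xist, Ddx3y, Myh6 and Sln, which describe the samples, were chosen after their values had been seen, and the other atrial markers of the list are given beside Sln. A named gene of the signalling list is not reported here. Sequences came from the RefSeq promoter table.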

Additional observations from a re-analysis of the deposited data

How the results depend on the processing

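Counts of genes past the threshold depended on the test, and the cause was not tested. The counts, 0 with edgeR in all 7 comparisons, were 203, 7, 4, 201, 1, 24 and 0 with DESeq2 for averaged diabetes, averaged genotype, diabetes in Wt, diabetes in Hif1a+/-, genotype in non-diabetic, genotype in diabetic pregnancy and the interaction, and 593, 77, 129, 592, 33, 220 and 78 without a filter on low counts. With limma-voom they were 39, 937 and 1 for averaged diabetes, diabetes in Hif1a+/- and genotype in diabetic pregnancy and 0 elsewhere, and a fit of only the 2 groups compared gave 101 for diabetes in Hif1a+/-. Leaving out each sample in turn gave 0 to 21 for averaged diabetes (21 without diabetic Wt replicate 50, 5 without diabetic Hif1a+/- replicate 66), 0 to 2 for averaged genotype, 0 to 38 for diabetes in Hif1a+/- (38 without replicate 72), 0 to 2 for genotype in diabetic pregnancy and 0 to 1 for the interaction.

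Of the members, Vegfa alone changed its call, without the filter, as given with its values. The averaged diabetes values of Vegfa (-0.55 to -0.28), Vegfb (0.01 to 0.08) and Pgf (0.21 to 0.42) kept their sign when any sample was left out, and limma-voom turned those of Vegfc (-0.03) and Nrp1 (-0.01). The values that turned when a sample was left out lay near 0: for averaged diabetes Vegfc (-0.05 to 0.17), Flt1 (-0.07 to 0.19), Kdr (-0.15 to 0.03), Flt4 (-0.10 to 0.05), Nrp1 (-0.02 to 0.08) and Nrp2 (-0.14 to 0.05), and for averaged genotype Vegfb (-0.02 to 0.04), Vegfc (-0.04 to 0.18), Flt1 (-0.16 to 0.08), Kdr (-0.11 to 0.08) and Nrp1 (-0.08 to 0.02). Within groups, Vegfa turned for diabetes in Wt (-0.49 to 0.05) and for genotype in non-diabetic pregnancy (-0.44 to 0.08), and Pgf for diabetes in Hif1a+/- (-0.01 to 0.42) and for genotype in non-diabetic pregnancy (-0.17 to 0.08). The log2 ratios that turned were Flt1 to Kdr (-0.09 to 0.03) and Nrp1 to Kdr (-0.09 to 0.08) for genotype and Flt4 to Kdr (-0.07 to 0.10) for diabetes. No analysis paired by litter was possible because which offspring shared a litter is not given in the sources used here. With 3 animals a group, the interval for Vegfa spans changes from 0.528-fold to 1.05-fold for averaged diabetes.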
